A study of Mus musculus with 20 samples.

Results

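The 10 genes described here are members of the adrenal WNT pathway: the ligand Wnt4, the R-spondins Rspo1 and Rspo3, the secreted protein Dkk3, the transducer Ctnnb1 and the responsive genes Lef1, Axin2, Lgr5, Znrf3 and Rnf43. They were taken by name from the 47729 genes of the deposited table, and all 10 passed the filter on low values. The naming rule uses no measured value, but the set was drawn up with earlier results of these data known. Expression was measured by RNA sequencing of whole mouse adrenal glands in 20 libraries, to examine what inactivation of the clock gene Bmal1 changes in each sex. The groups were 5 control females aged 1.5 to 3.4 months, 5 females labelled Bmal1 KO aged 2.4 to 3.4 months, 6 control males aged 2.9 to 4.7 months and 4 males labelled Bmal1 KO aged 2.9 to 3.7 months. Every group, controls included, carries the label SCC::Cre, a Cre driver named for the side-chain cleavage enzyme of steroid-producing cells. The strain, the hour of collection and the deleted exons were not given in the sources used here. In whole glands, fewer cells of a type and less RNA per cell cannot be told apart.

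WNT ligands bind Frizzled receptors and keep beta-catenin, the product of Ctnnb1, from being degraded, so that it enters the nucleus and acts with TCF and LEF factors on target genes. R-spondins strengthen the signal by binding LGR receptors and removing the E3 ubiquitin ligases ZNRF3 and RNF43, which otherwise clear Frizzled from the cell surface. In the mouse adrenal, capsule cells are known to make RSPO3, cells of the zona glomerulosa beneath them are known to make WNT4 and to respond through beta-catenin, and the signal is known to maintain that aldosterone-producing zone.

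The libraries held between 13421985 and 26742820 reads. Arntl, the gene of BMAL1, was not lower in either group labelled Bmal1 KO. By genotype its log2 difference was 0.57 in females (limma adjusted p = 0.164) and 0.55 in males (limma adjusted p = 0.241), and neither passed. Averaged over both sexes, a contrast added after the data were seen, Arntl was called higher in KO (0.56, limma adjusted p = 0.0212). Control females spanned 494 to 860 normalised reads and KO females 833 to 1010, while control males spanned 365 to 1092 and KO males 841 to 995. Whole-gene counts also take in exons outside a deletion, so this does not check the labels, and each genotype direction below rests on the labels. Zona glomerulosa, zona fasciculata, capsule and medulla markers were all present in every group. Values are normalised reads unless stated otherwise, and SD is given over libraries.

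RefSeq promoter windows were examined because BMAL1 is known to bind E-boxes and TCF and LEF factors are known to bind a short core motif. Entries were found for 6 of the 10 genes, with 11 windows in all, and no entry was found for Rspo3, Dkk3, Lgr5 and Znrf3. The 250 bases before each start were searched on both strands for the E-box CACGTG, the TCF/LEF core CTTTG, which reads CAAAG on the opposite strand, and the NR5A1 site CAAGGTCA, which reads TGACCTTG there. The E-box was in 6.02% of all 32851 mouse windows of that length, the TCF/LEF core in 48.6% and the NR5A1 site in 1.33%. Among the members, only windows of Lef1 held any match, and 1 of its 4 windows held an E-box. The 2 windows below belong to the genes with the largest genotype differences among the members. The first is the stretch before the first annotated exon of Wnt4, chr4:137277385-137277488 on GRCm38.p6, plus strand, with no match. The second is the window at the fourth Lef1 start, chr3:131156044-131156293, plus strand. This start lies inside the gene, which is annotated from 131110471 to 131224356. Its window held the most matches of the 4, and the windows of the other starts held TCF/LEF cores but no E-box. Capitals mark the E-box, which begins 79 bases before the start, and 3 TCF/LEF cores in reverse complement, which begin 179, 145 and 119 bases before it. A match is a description of the letters, not evidence of binding.
Wnt4: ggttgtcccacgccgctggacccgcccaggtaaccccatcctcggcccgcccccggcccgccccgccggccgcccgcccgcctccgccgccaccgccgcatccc
Lef1: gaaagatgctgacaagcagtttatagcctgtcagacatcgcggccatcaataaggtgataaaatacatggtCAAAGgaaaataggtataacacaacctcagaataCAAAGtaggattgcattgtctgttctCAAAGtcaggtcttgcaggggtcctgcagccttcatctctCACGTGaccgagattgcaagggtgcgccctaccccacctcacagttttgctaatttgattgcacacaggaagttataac

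Expression levels spanned a wide range. Per kilobase of exon, the group means of Ctnnb1 lay between 3331 and 3825 normalised reads, and those of Wnt4 came next, between 684 and 1670. Dkk3 (197 to 289), Rspo3 (163 to 220) and Axin2 (117 to 209) overlapped one another in the middle of the order. Lgr5 (63.1 to 110) and Znrf3 (73.7 to 83.0) overlapped below them. Rspo1 (22.6 to 33.2), Rnf43 (23.0 to 29.9) and Lef1 (11.3 to 29.8) formed the lowest overlapping set. All are protein-coding genes in GENCODE M21 on GRCm38, where Wnt4 (ENSMUSG00000036856) lies on chromosome 4 from 137277489 to 137299726 and Lef1 (ENSMUSG00000027985) on chromosome 3 from 131110471 to 131224356. Axin2 (ENSMUSG00000000142) lies on chromosome 11 from 108920349 to 108950783, and Rspo3 (ENSMUSG00000019880) on chromosome 10 from 29452416 to 29535867. Exons of Axin2, Lef1, Rspo3 and Ctnnb1 overlap a gene on the opposite strand, and without a stated strand setting such reads cannot be told apart. The partners of Axin2 and Lef1 were low, at no more than 5.73 normalised reads for Gm11670 and 15.6 for Gm43352.

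**Figure D1:**
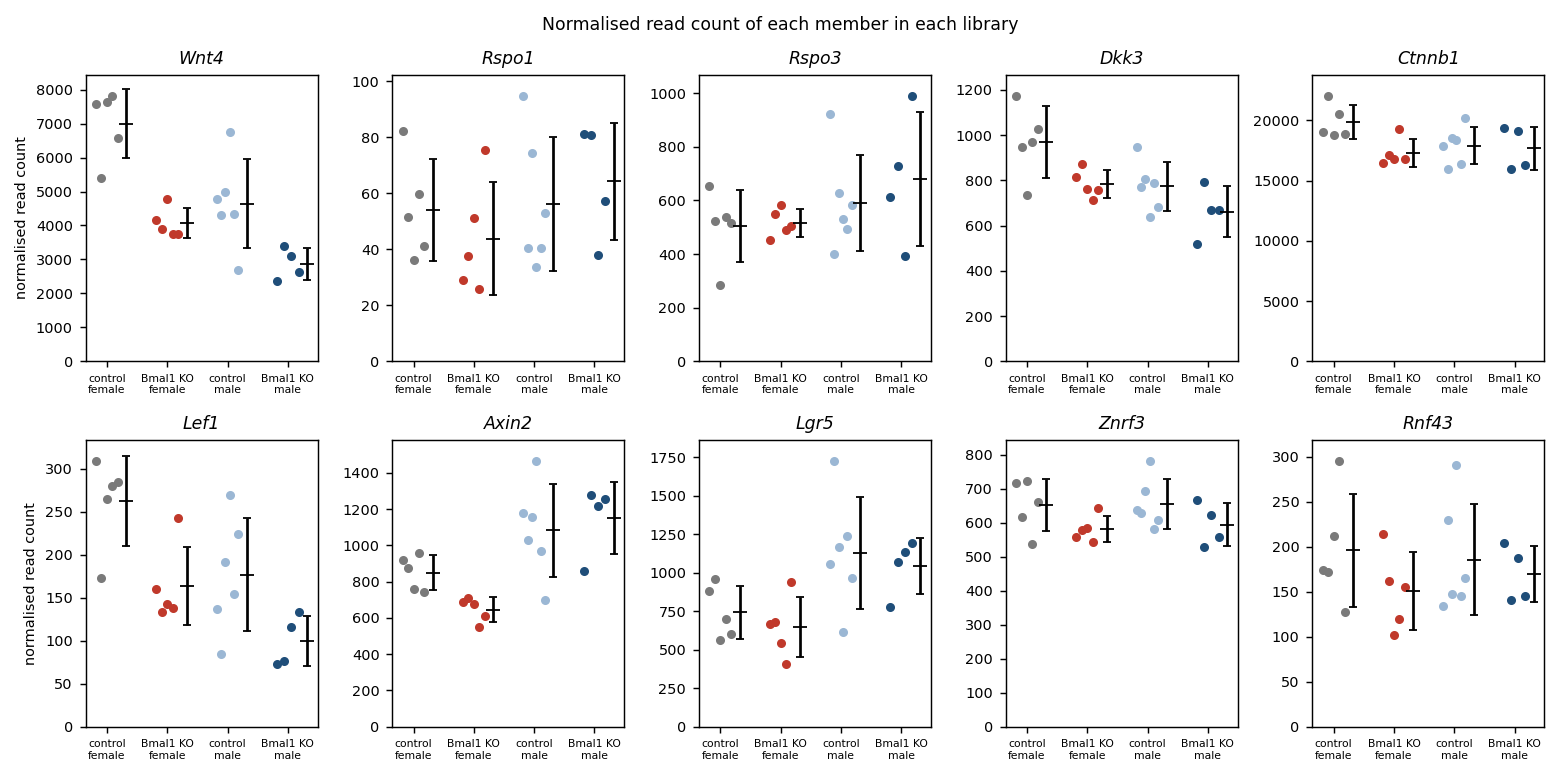
Normalised read count of each member (vertical axes, starting at 0, separate scale for each gene) in each of the 20 libraries, by group; points are libraries and bars are the mean ± SD. Wnt4 is at 5405 or more in every control female and at 4783 or less in every KO female.

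Wnt4, the ligand, had lower means in both KO groups and was higher in females than in males. The control females held 7580, 5405, 7626, 7822 and 6592 normalised reads and the KO females 4176, 3911, 4783, 3755 and 3758. Every KO female lay below every control female. Control males ran from 2692 through a median of 4551 to 6765, and the KO males held 2354, 3393, 3113 and 2616. Control males spread the most, and the KO males overlapped only their lowest library, control male 6. Among control males that library was also the lowest in Axin2 (697) and the highest in Arntl (1092, the others at 664 or less). Its sum of zona fasciculata markers was 458744, against 281825 or less in the other control males. Why it differs was not tested. The group means were 7005 ± 1014 (SD, n = 5) in control females, 4077 ± 431 (SD, n = 5) in KO females, 4641 ± 1316 (SD, n = 6) in control males and 2869 ± 470 (SD, n = 4) in KO males. Control females stood first and KO males last, and the means of control males and KO females lay within 1 SD of control males of each other.

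In females, Wnt4 was the 1 member of 10 that passed the test, falling by 0.77 ± 0.17 on the log2 scale (SE, limma adjusted p = 0.0168). Over all 26612 genes tested, 1.75% were called in that comparison. It no longer passed without control female 4 (log2 difference -0.73, limma adjusted p = 0.052) and without both control females of 1.5 months (-0.74, limma adjusted p = 0.104). In males the difference was -0.66 ± 0.17 (SE) and did not pass (limma adjusted p = 0.0669). It passed with edgeR on the recovered reads (adjusted p = 0.0472), with DESeq2 (adjusted p = 0.00518) and without control male 6 (-0.80, limma adjusted p = 0.0024). The test of the difference between the female and male effects gave -0.12 (limma adjusted p = 0.989). Averaged over both sexes in the same fit, a contrast added after the data were seen, Wnt4 fell by 0.72 ± 0.12 on the log2 scale (SE, limma adjusted p = 0.000962), against 3.81% of all genes called. That call held in each of the 20 fits that left out a single library.

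Lef1, a nuclear partner of beta-catenin and itself a target, showed a difference of like size at far lower read counts. The control females held 309, 173, 265, 280 and 285 normalised reads and the KO females 160, 134, 142, 138 and 243. Only control female 2 and KO female 5 crossed into the range of the other group. Control males ran from 84.8 through a median of 173 to 269, and the KO males held 73.3, 76.0, 116 and 133. Both groups of males overlapped. By genotype the log2 difference came to -0.69 ± 0.26 (SE) in females (limma adjusted p = 0.244) and -0.78 ± 0.27 (SE) in males (limma adjusted p = 0.208), and neither passed. Averaged over both sexes it was -0.73 ± 0.19 (SE, limma adjusted p = 0.0275) and passed. This call was lost without KO female 2 (limma adjusted p = 0.0534), KO female 3 (0.0508), KO male 1 (0.0626), KO male 2 (0.0645) or both control females of 1.5 months (0.0964). Lef1 is also known from lymphocytes. The sum of 7 lymphocyte markers spanned 75.2 to 220 normalised reads in control females, 159 to 234 in KO females, 89.5 to 155 in control males and 77.9 to 128 in KO males. KO female 5, the highest KO female in Lef1, was at 177 in that sum, inside its group's range. The part of lymphocytes in the Lef1 difference was not tested.

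Axin2, a target of beta-catenin that acts back as an inhibitor by promoting its degradation, had lower means in females than in males. By sex it was called among the libraries labelled Bmal1 KO. In controls the sexes overlapped and the difference did not pass (-0.32, limma adjusted p = 0.11). The control females held 917, 875, 757, 957 and 743 normalised reads and the KO females 688, 709, 675, 547 and 611. Every KO female lay below every control female, as was so for 3.25% of all genes in either direction, yet the difference of -0.39 ± 0.15 (SE) did not pass (limma adjusted p = 0.256). Control males ran from 697 through a median of 1092 to 1465, and the KO males held 857, 1276, 1220 and 1253. The male groups overlapped widely, with a log2 difference of 0.11 ± 0.15 (SE, limma adjusted p = 0.884). The difference between the female and male effects on Axin2 was -0.50 ± 0.22 (SE), with an unadjusted p of 0.0305 and a limma adjusted p of 0.721. No member was called for that interaction, in which 0.0301% of all genes were called.

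**Figure D2:**
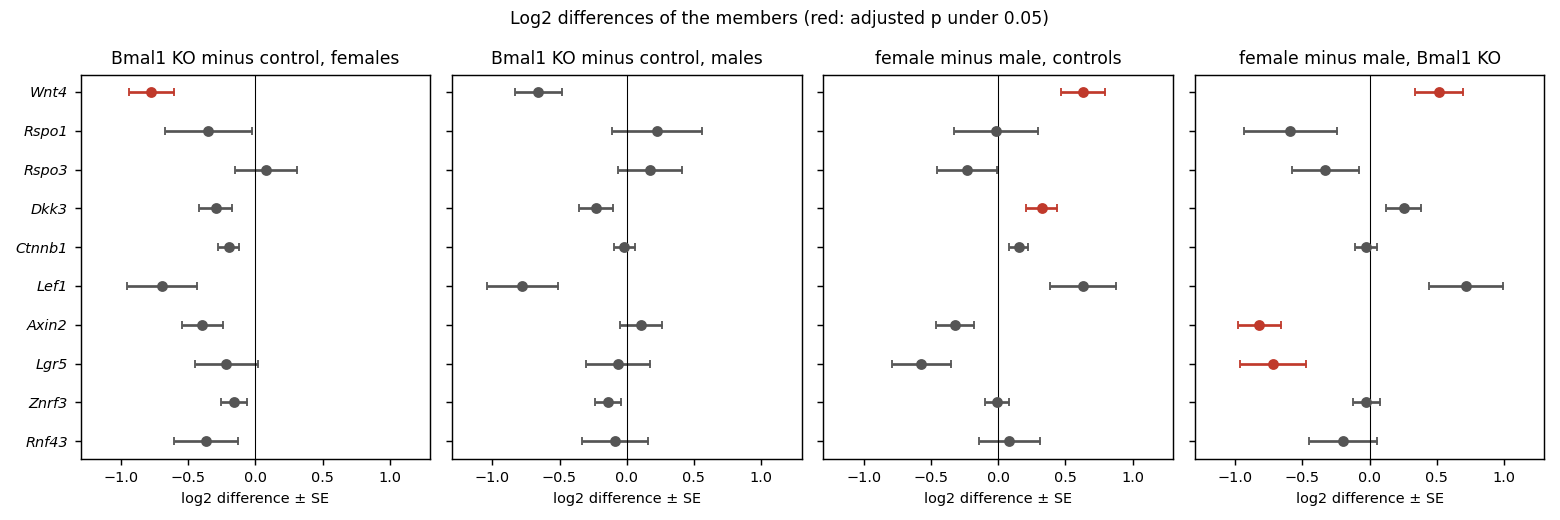
Log2 difference ± SE of each member (horizontal axes) in the 4 comparisons of single groups, red where the limma adjusted p was under 0.05. Wnt4 stands at -0.77 in females and -0.66 in males by genotype, and Axin2 at -0.82 by sex among the libraries labelled Bmal1 KO.

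The R-spondins did not pass in either genotype comparison. Rspo3 in control females was at 653, 524, 284, 540 and 518 normalised reads and in KO females at 451, 551, 585, 488 and 505. All KO females lay inside the range of control females, with a log2 difference of 0.079 ± 0.23 (SE, limma adjusted p = 0.951). Control males ran from 399 through 556 to 922 and the KO males held 615, 729, 391 and 991, with a difference of 0.17 (limma adjusted p = 0.873). Rspo1 stayed between 25.8 and 94.9 normalised reads in all 20 libraries, and its groups overlapped in all 4 comparisons. Its log2 difference was -0.35 ± 0.33 (SE) in females (limma adjusted p = 0.769) and 0.23 in males (limma adjusted p = 0.886).

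Dkk3, a secreted protein of the Dickkopf family, held 1174, 946, 736, 969 and 1027 normalised reads in control females and 817, 871, 760, 712 and 758 in KO females. KO female 4 lay below every control female, and the other 4 KO females sat in the lower part of the control range. Control males ran from 639 through 782 to 950, and the KO males held 520, 792, 669 and 667. Dkk3 differed by -0.30 ± 0.12 (SE) on the log2 scale in females (limma adjusted p = 0.324) and -0.23 in males (limma adjusted p = 0.551). Ctnnb1 was the steadiest of the 10 with Znrf3. Its group means were 19859 ± 1409 (SD, n = 5) in control females, 17296 ± 1153 (SD, n = 5) in KO females, 17903 ± 1527 (SD, n = 6) in control males and 17677 ± 1787 (SD, n = 4) in KO males. The female difference of -0.20 ± 0.076 (SE) did not pass (limma adjusted p = 0.261), and the male difference was -0.020 (limma adjusted p = 0.969).

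Lgr5, an R-spondin receptor and target gene, held 883, 958, 560, 697 and 604 normalised reads in control females and 667, 680, 545, 409 and 937 in KO females. The female groups overlapped. Control males ran from 612 through 1112 to 1724, and the KO males held 779, 1065, 1136 and 1192. The log2 difference by genotype was -0.21 ± 0.23 (SE) in females (limma adjusted p = 0.812) and -0.065 in males (limma adjusted p = 0.966). The ligase genes Znrf3 and Rnf43 also overlapped between genotypes in both sexes. Znrf3 ran from 528 to 782 normalised reads and Rnf43 from 102 to 295 over all libraries, with female log2 differences of -0.16 (limma adjusted p = 0.577) and -0.37 (limma adjusted p = 0.607).

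As a list, the members had 9 of 10 negative log2 differences by genotype in females, with a median of -0.32 against 0 over all genes, and 1 of 10 called. In males 7 of 10 were negative, the median was -0.077, and 0 of 10 were called by limma against 1.33% of all genes. The values of Wnt4 and Lef1 had an unadjusted p under 0.05 there.

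Sex comparisons gave more calls among the members, in a setting where 26.4% of all genes were called in controls (3582 higher and 3441 lower in females) and 22.8% in the libraries labelled Bmal1 KO (3222 and 2833). With scaling by the library total these splits were 2279 and 4617 in controls and 2058 and 4106 in KO, and the median of all genes shifted by -0.10 and -0.11 on the log2 scale. Among controls, Wnt4 was higher in females by 0.63 ± 0.16 (SE, limma adjusted p = 0.00584), and Dkk3 by 0.32 ± 0.12 (SE, limma adjusted p = 0.0488). The Wnt4 call held in each of the 20 fits without a single library, while the Dkk3 call was lost in 16 of 20, and held only without KO male 1, KO male 2, control female 3 or control male 1. It was also lost in 7 of 12 alternatives that leave out no single library, and with scaling by the library total the value was 0.20 (limma adjusted p = 0.309). Lef1 (0.63 ± 0.25) and Lgr5 (-0.57 ± 0.22) did not pass in controls (SE, limma adjusted p = 0.0673 and 0.0628), nor did Axin2 (-0.32 ± 0.14, SE, limma adjusted p = 0.11). Without control male 6, Axin2 passed (-0.44, limma adjusted p = 0.0105). Lef1 passed without control female 2, control male 4 or control male 6, and Lgr5 without control female 2, control male 4 or KO female 4, and also with edgeR, DESeq2 and scaling by the library total. So 2 of 10 members passed, both higher in females, and the groups of 0 of 10 were free of overlap, against 13.9% of all genes.

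In the libraries labelled Bmal1 KO, Axin2 was lower in females than in males by -0.82 ± 0.16 on the log2 scale (SE, limma adjusted p = 0.000721). The highest KO female, at 709 normalised reads, lay below the lowest KO male, at 857. Lgr5 was also lower in females (-0.72 ± 0.25, SE, limma adjusted p = 0.039) and Wnt4 higher (0.52 ± 0.18, SE, limma adjusted p = 0.0426). Wnt4, Lef1 and Axin2 did not overlap between the sexes there, as 20.7% of all genes did not. The Axin2 call held in each of the 20 fits without a single library. That of Wnt4 was lost in 8, namely without any of the 5 KO females or without KO male 1, 3 or 4. That of Lgr5 was lost in 6, without KO female 1, 3 or 4 or KO male 2, 3 or 4. Both calls were also lost with age as a covariate and without a filter on low values. That of Wnt4 was lost as well without the control females of 1.5 months (limma adjusted p = 0.0527) and with scaling by the library total (0.38, limma adjusted p = 0.182). Lef1 was at 0.72 ± 0.28 (SE) and did not pass (limma adjusted p = 0.0664). It passed with DESeq2 (adjusted p = 0.0407), without KO male 4 and without control male 2.

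Averaged over both genotypes, a contrast also added after the data were seen, 5 of 10 members were called by sex, against 38.3% of all genes. Wnt4 (0.57), Lef1 (0.67) and Dkk3 (0.29) were higher in females, and Axin2 (-0.57) and Lgr5 (-0.65) were lower. Wnt4 and the target genes Axin2 and Lgr5 thus had opposite signs, while the target Lef1 had the sign of Wnt4. The targets Znrf3 (-0.018) and Rnf43 (-0.059) were not called. With scaling by the library total, all genes called split into 3178 higher and 7283 lower, against 4896 and 5289. With age as a covariate, Lef1 (0.37, limma adjusted p = 0.203) and Lgr5 (-0.48, limma adjusted p = 0.088) no longer passed, and with scaling by the library total Dkk3 (0.16, limma adjusted p = 0.225) did not. Control males included older animals than any female group. The X-zone, an inner cortical zone of young mice that is lost early in males, differed along with sex: the sum of its 3 markers ran from 29768 to 135810 normalised reads in females and from 44.6 to 674 in males, and its part in the sex differences of the members was not tested.

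Wnt4 and Axin2 varied together between libraries of the same group. After subtracting group means on the log2 scale, Pearson's r over the 20 libraries was 0.81 (permutation p = 0.00155, adjusted over 45 member pairs 0.0515) and Spearman's rho 0.66 (permutation p = 0.00445, adjusted 0.1). Without control male 6 and control male 4, the libraries farthest from the median of Wnt4, r was 0.53. Control males have the widest range in both genes, and among those 6 alone r was 0.99. Control male 4 also had the fewest reads of all libraries (13421985) and the lowest sum of medulla markers (88308). Its sum of zona glomerulosa markers (65345) was the highest among males, as was the zona fasciculata sum of control male 6 (458744). The part of the mix of cell types in this covariation was not tested. Rspo1 and Rspo3 followed each other with r of 0.64 (permutation p = 0.00229, adjusted 0.0515) and rho of 0.71 (permutation p = 0.00138, adjusted 0.0621), and r was 0.64 again without KO female 5 and control male 1. None of the 45 pairs passed after adjustment of Pearson's p.

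**Figure D3:**
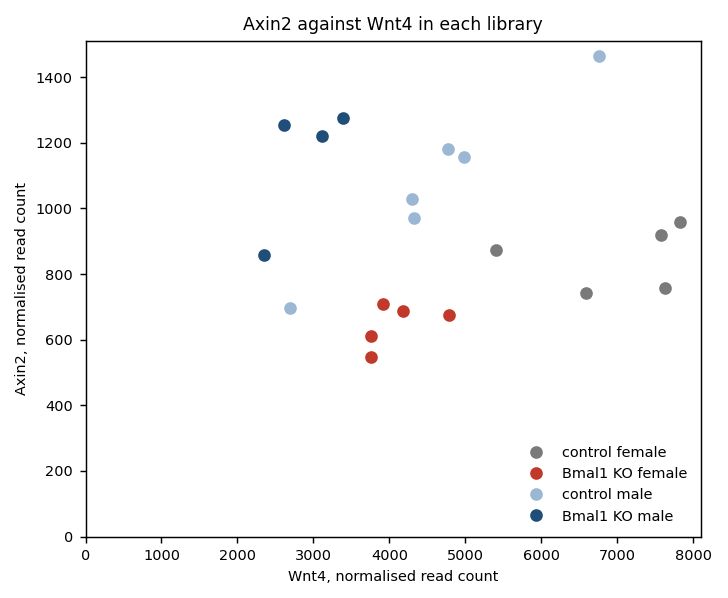
Normalised read count of Axin2 (vertical axis) against Wnt4 (horizontal axis), both starting at 0, in each of the 20 libraries, coloured by group. KO males reach 857 to 1276 for Axin2 with Wnt4 at 3393 or less, while control females hold 743 to 957 for Axin2 with Wnt4 at 5405 or more.

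By the same measure, the genes most like Wnt4 over the 20 libraries, among 12216 genes compared, were Mest (r = 0.88), Atp2b3 (0.87), Sorbs2 (0.86), Plcb3 (0.86) and Pbx3 (0.86). Of these 5, only Atp2b3, which codes for a plasma membrane calcium pump, was called by genotype within a single sex. It fell in females labelled Bmal1 KO, by 0.93 ± 0.12 on the log2 scale (SE, limma adjusted p = 0.000128), and in males by 0.66 ± 0.13 (SE, limma adjusted p = 0.00702). Averaged over both sexes, Mest (-0.49, limma adjusted p = 0.0378) and Pbx3 (-0.28, limma adjusted p = 0.0281) were called too, against 3.81% of all genes. Sorbs2 and Plcb3 were not. Mest was at -0.61 in females and -0.38 in males and Pbx3 at -0.26 and -0.30, while Sorbs2 was at 0.15 and 0.042 and Plcb3 at -0.047 and 0.044. By sex, Atp2b3 was lower in females (-0.66 in controls and -0.93 in KO), the opposite sign to Wnt4. Those most like Rspo3 were Gpc3 (0.93), Igfbp6 (0.90), Smoc2 (0.88), Islr (0.88) and Pdgfc (0.86), and Gpc3 did not pass in either genotype comparison.

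Of 8 zona glomerulosa markers, 2 fell by genotype in each sex and 6 did not pass. Their sum spanned 52447 to 65622 normalised reads in control females and 36412 to 42272 in KO females, without overlap, and 41500 to 65345 in control males and 34595 to 53401 in KO males. The male sums overlapped. Over the 8 markers, 7 log2 differences were negative in females (median -0.36) and 4 in males (median -0.027). Over all genes 1.75% were called in females and 1.33% in males, and the female median was 0. Those that fell were Shh, a signalling molecule of subcapsular cells (-1.79 in females and -1.53 in males), and Kcnk3, a potassium channel (-0.86 and -0.75). Cyp11b2, the aldosterone synthase, did not pass (-0.26 in females, limma adjusted p = 0.683). The 9 capsule and stroma markers summed to between 6163 and 10723 in control females and between 6431 and 8745 in KO females, and 5352 to 11455 in control males and 7064 to 11890 in KO males, with 0 of 9 called in either sex. In females 2 of the 9 capsule differences were positive, and in males all 9 were, with a median of 0.24. The 7 chromaffin markers of the medulla were negative in each sex (medians -0.33 in females and -0.24 in males), with 0 called. In females 3 of the 7 were free of overlap, against 3.25% of all genes. Their sums spanned 120022 to 166787 in control females, 107135 to 142549 in KO females, 88308 to 207383 in control males and 115600 to 146085 in KO males. Of 6 adipocyte markers, 5 were negative in females and all 6 positive in males (medians -0.57 and 0.66), with 0 called. Their sums were 3428 to 10561 in control females, 4254 to 8365 in KO females, 3172 to 5267 in control males and 4639 to 5781 in KO males. In females 1 of 3 X-zone markers and 1 of 6 macrophage markers were called lower, and in males 0 of either list were called. Averaged over both sexes, 1 of each of these lists was called lower and 2 of 6 endothelium markers higher, against 3.81% of all genes. By that contrast 1 of 5 zona fasciculata and 1 of 6 adipocyte markers were called higher, and 2 of 8 zona glomerulosa markers lower. The part of the mix of cell types in the Wnt4 difference was not tested.

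**Figure D4:**
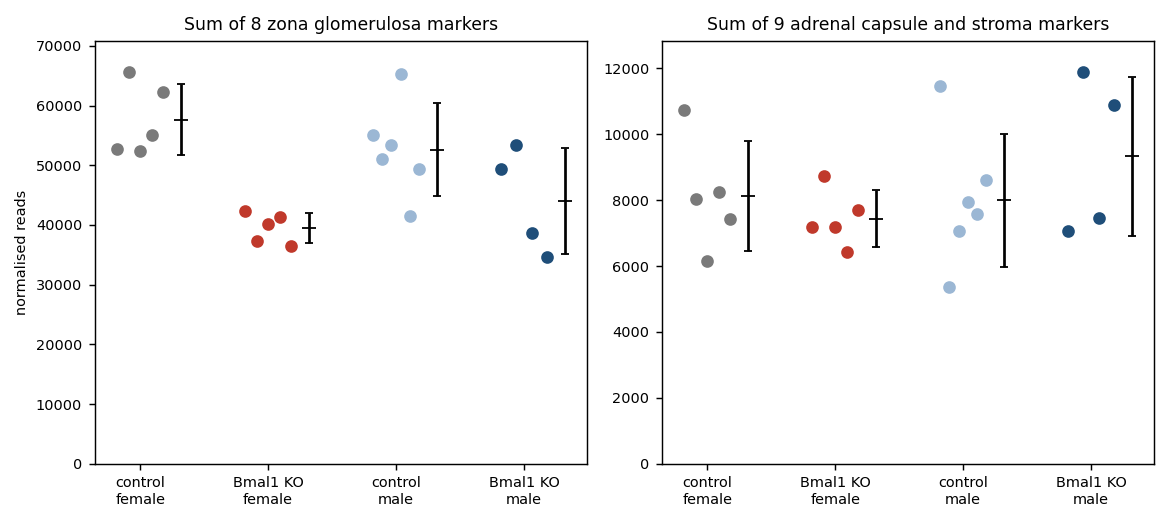
Sum of 8 zona glomerulosa markers (left) and of 9 adrenal capsule and stroma markers (right) in normalised reads, axes starting at 0; points are libraries and bars are the mean ± SD. The glomerulosa sum of KO females, at most 42272 normalised reads, lies below that of every control female, at least 52447.

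Beyond the members, 93 further WNT pathway genes were listed, comprising ligands, receptors, secreted inhibitors, relay and nuclear factors and targets, of which 87 were tested. In females 0 were called by genotype by limma, 1 by edgeR and 4 by DESeq2, and the list's median log2 difference was -0.049 in females. In males 1 was called, Wnt8b, a ligand gene at 0 in all 4 KO males and at a mean of 2.12 normalised reads in control males, which is under the floor of 3 reads. Averaged over both sexes, 3 were called higher and 4 lower, which is 8.05% of the 87 against 3.81% of all genes. The higher ones were Fzd5, a Frizzled receptor (0.42), Lrp5, a co-receptor (0.32), and Dvl2, a relay protein (0.32). The lower ones included Gsk3b, the kinase that marks beta-catenin for degradation (-0.28), and Ctnnbip1, an inhibitor of its binding to TCF factors (-0.24), besides Wif1 and Wnt8b at a few reads. Fzd5 spanned 329 to 520 normalised reads in control females and 338 to 661 in KO females, which overlapped, and 446 to 674 in control males and 705 to 856 in KO males, which did not. Of the 87 genes, 6 were free of overlap by genotype in males. The share of all genes free of overlap there is not given, so the separation of Fzd5 cannot be weighed against it.

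By sex, 18 of the 87 were higher and 18 lower in control females than in control males, and 9 were higher and 18 lower among the libraries labelled Bmal1 KO. That is 41.4% and 31.0% of the list, against 26.4% and 22.8% of all genes. With scaling by the library total the splits of the list were 9 higher and 20 lower in controls and 8 and 23 in KO. Frzb, a secreted WNT antagonist, differed the most in both: it spanned 7312 to 18700 normalised reads in control females and 38.5 to 226 in control males, a log2 difference of 7.04 ± 0.37 (SE, limma adjusted p = 1.74e-11). In KO females it ran from 5669 to 11182 and in KO males from 52.9 to 111. The ligand gene Wnt10b was at 0 to 4.16 normalised reads in control females and at 13.3 to 121 in control males, and Wnt9b, another ligand gene, at 2.06 to 10.4 and 19.8 to 52.2. Tle2, a co-repressor of TCF factors, was lower in females (-1.85 in controls and -1.90 in KO), while Cd44 (1.68 in controls) and Myc (1.04 in KO), both known beta-catenin targets, were higher in females. Among the libraries labelled Bmal1 KO, the targets Myc and Axin2 thus had opposite signs by sex.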

How the data were processed

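Total RNA of whole mouse adrenals was sequenced after library preparation with a TrueSeq kit, per the labels' protocols. Tools named by the submitters' processing notes are DESeq2, Salmon, featureCounts, MultiQC and FastQC, with builds mm10 and GRCm38. Versions, aligner and strandedness were not given in the sources used here. Deposited values are a normalised signal per gene and library. Within a tolerance of 0.001 of a read, 100% of them were whole multiples of 1 step per library, equal to reads divided by a DESeq2 size factor. Of the 47729 genes, 13350 were at 0 throughout and 47310 matched GENCODE M21.

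The members and lists were chosen with earlier results of these data known. All 10 members are described, with other WNT genes called by genotype, the 5 largest non-overlapping calls in each sex comparison, and the 5 genes most like Wnt4 and Rspo3 among genes with a mean of at least 100.

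limma 3.58.1 (limma-trend, R 4.3.3) modelled log2(value + 1) over all 20 libraries, with group means as coefficients. It covered 26612 genes, each reaching 1 or more in 4 or more libraries. That scale understates changes of low genes. Calls are at a Benjamini-Hochberg adjusted p below 0.05. edgeR 4.0.16 and DESeq2 1.42.0 were run on the recovered reads as alternatives; edgeR called 518 genes in females and 401 in males. The fits were also run on simulated data, but no outcome is given here, so this does not bear on the calls. The mean-of-both contrasts, the lymphocyte markers and the naming of Fzd5, Lrp5, Dvl2, Gsk3b, Ctnnbip1 and Wif1 were chosen after the data were seen. Member pairs were tested with 100000 permutations within groups. A floor of 3 reads covers counting error only. Nothing in the labels says that all libraries came from separate animals, so p-values measure the spread between these samples, which may be technical. Sequence came only from RefSeq promoter windows on GRCm38.p6.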

Additional observations from a re-analysis of the deposited data

Results flagged for a closer look

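In 40 sets of 1 member in 1 group, 3 libraries stood apart from the rest of their group, and chance alone flags about 1 in 20 groups. KO female 4 was the highest of its group for Ctnnb1, at 19321 normalised reads. KO female 5 was the highest of its group for Lef1, at 243, within the range of control females. KO male 1 was the lowest of its group for Axin2, at 857, where the other 3 KO males lay between 1220 and 1276.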

How the results depend on the processing

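The cause of each change below was not tested. The number of genes called by genotype in females was 901 with DESeq2 and 262 without the control females of 1.5 months. In males it was 732 with DESeq2, 195 with only the groups compared, and between 217 (without KO male 4) and 477 when single libraries were left out. The interaction had 82 calls with DESeq2, 0 with age as a covariate and between 0 and 16 without single libraries. By sex in controls there were 3746 calls with age as a covariate, and by genotype over both sexes 1639 with DESeq2. Of the other WNT genes, DESeq2 called 4 in females, 3 in males and 12 over both sexes, and edgeR 1 in females. Without the control females of 1.5 months there were 1, 0 and 2. In males 0 were called with age as a covariate, with a minimum of 10 or with a pseudocount of 5. Leaving out single libraries gave 0 to 2 in females, 0 to 2 in males and 2 to 7 over both sexes.

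Signs turned only for log2 differences that did not pass. With scaling by the library total, Ctnnb1 was at 0.0095 by genotype in males and -0.064 by sex over both genotypes, and Rnf43 at -0.037 by sex in controls. With TMM scaling Rspo1 was at 0.0050 and Znrf3 at 0.012 by sex in controls. With age as a covariate these were 0.30 and 0.057, Lgr5 was at 0.021 by genotype in males and Znrf3 at 0.028 by sex over both genotypes. Without the control females of 1.5 months, Rspo1 was at 0.027 and Znrf3 at 0.069 by sex in controls, and Znrf3 at 0.021 over both genotypes.

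Without single libraries the signs that turned covered these ranges. By genotype in females Rspo3 ran from -0.11 to 0.19. By genotype in males Rspo3 ran from -0.032 to 0.41, Ctnnb1 from -0.065 to 0.027, Axin2 from -0.014 to 0.24, Lgr5 from -0.23 to 0.070 and Rnf43 from -0.18 to 0.053, and over both sexes Rspo1 from -0.17 to 0.051. In the interaction Wnt4 ran from -0.24 to 0.030, Rspo3 from -0.34 to 0.11, Dkk3 from -0.18 to 0.023, Lef1 from -0.065 to 0.28, Lgr5 from -0.30 to 0.013 and Znrf3 from -0.084 to 0.041. By sex in controls Rspo1 ran from -0.18 to 0.15, Znrf3 from -0.049 to 0.057 and Rnf43 from -0.079 to 0.22. By sex in KO Ctnnb1 ran from -0.075 to 0.017 and Znrf3 from -0.082 to 0.032, and over both genotypes Znrf3 from -0.046 to 0.015 and Rnf43 from -0.14 to 0.011.

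Whether replicate numbers pair the samples is not settled here. Deviations of libraries with the same number correlated between -0.071 and 0.14. The same number was the best match for control females 1, 2 and 4 among KO females. It was so for control females 2, 4 and 5 among control males, and for no number in the other comparisons. With the replicate block, Wnt4 passed by genotype in males (-0.85, limma adjusted p = 0.0142), Axin2 was at -0.074 there, and the interaction was 0.079 for Wnt4 and 0.050 for Znrf3 with 5 genes called. Libraries whose number has no partner, such as control male 6, add nothing to the blocked difference. By sex in controls Lef1 (0.72), Axin2 (-0.44) and Lgr5 (-0.60) passed with the block and Dkk3 (0.29) did not. These values equal those without control male 6 and no block, where Lef1 and Axin2 also passed, Dkk3 did not, and Lgr5 did not (limma adjusted p = 0.066). It called 368 genes in females and 303 in males, and 1 other WNT gene in females.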

Other observations

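The ratio of Axin2 to Wnt4, each per kilobase of exon, was computed after their values were seen and is given with no test. It ran from 0.0756 to 0.123 in control females, from 0.107 to 0.138 in KO females, from 0.165 to 0.197 in control males and from 0.277 to 0.365 in KO males. The groups of males did not overlap, and every male library lay above every female library. By genotype in males Wnt4 was at -0.66 and Axin2 at 0.11, and neither was called with limma. The ratio was chosen with these values known, so its separation is no independent result. How often ratios of other genes separate the same groups is not given. Control males spanned from 2692 to 6765 normalised reads in Wnt4 while their ratio had a mean of 0.180 ± 0.0117 (SD, n = 6).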
